A study of Mus musculus with 4 samples.

Results

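The tricarboxylic acid (TCA) cycle genes, the pyruvate dehydrogenase complex and its kinases were followed in 4 primary mammary tumors of female mice, 2 from WapCre;Rank;Brca1;p53 triple-mutant animals (tumors 26043 and 26044) and 2 from WapCre;Brca1;p53 double-mutant animals (tumors 26048 and 26050). The 38 genes were taken by symbol from the gene tables of the tumors, which list 23284 distinct symbols. Brca1 and p53 were deleted in both genotypes, and Rank (Tnfrsf11a, the receptor of RANKL) in the triple-mutant tumors alone, by a Wap-promoter Cre line named WapCreC in the study and described there as active in luminal and basal mammary epithelium without pregnancy or doxycycline. Each tumor is 1 sample of whole tissue, so fewer cells of a type and less RNA per cell cannot be told apart. The age of each animal and the grade of each sequenced tumor are not given in the sources used here.

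The TCA cycle oxidizes acetyl-CoA in the mitochondrial matrix and passes electrons to the respiratory chain, while several of its intermediates leave the mitochondrion to feed fatty acid, amino acid and nucleotide synthesis. The pyruvate dehydrogenase complex makes acetyl-CoA from pyruvate and is the gate between glycolysis and the cycle. Pyruvate dehydrogenase kinases phosphorylate the E1α subunit and switch the complex off, and the pyruvate dehydrogenase phosphatases switch it back on. Mammary epithelium and adipocytes both draw on these enzymes for fat synthesis, and many tumors run glycolysis beside an active cycle.

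Levels are FPKM, read counts scaled to transcript length and to the mapped total of the library, so that levels of different genes can be set side by side per length. Tnfrsf11a (chr1:105780723-105847981, mm10) was at 2.07 and 0.96 FPKM in the triple-mutant and at 10.6 and 11.9 FPKM in the double-mutant tumors, which puts both triple-mutant tumors below both double-mutant ones (log2 fold change −2.32, SE 0.37). Differences are given throughout as triple-mutant minus double-mutant on the log2(FPKM + 1) scale, with the SE of a limma fit to the 12752 genes that reached 1 FPKM in at least 2 tumors. The epithelial markers Epcam (347, 25.7, 516 and 390 FPKM in tumors 26043, 26044, 26048 and 26050) and Cdh1 (100.1, 10.4, 122 and 69.7 FPKM) were present in every tumor and lowest in triple-mutant tumor 26044. Of 8 epithelial markers, 3 (Epcam, Krt8 and Krt18) were higher in both double-mutant tumors and 3 in both triple-mutant tumors, namely the keratin genes Krt5 (596 and 114 against 1.15 and 2.06 FPKM), Krt14 (611 and 42.5 against 2.08 and 6.99 FPKM) and Krt19 (1154 and 194 against 139 and 56.7 FPKM), so the markers did not share an order. Their summed level was 4151 and 599 FPKM in the triple-mutant and 2458 and 1935 FPKM in the double-mutant tumors. The summed level of 10 adipocyte markers was 65.8 and 292 FPKM in the triple-mutant tumors against 2238 and 85.2 FPKM in the double-mutant tumors, so that double-mutant tumor 26048 stood apart. Of those 10 markers, 1 and 4 were at 0 in the triple-mutant tumors and none and 1 in the double-mutant tumors. The sum in tumor 26044 was mostly Fabp4, at 261 FPKM. Adipoq, Cfd, Cidec, Lipe and Retn were higher in both double-mutant tumors, and the other adipocyte markers overlapped. Summed fibroblast markers were also higher in the double-mutant tumors (206 and 123 against 908 and 439 FPKM), as were summed macrophage markers (239 and 159 against 569 and 343 FPKM). Of the fibroblast markers, Pdgfra had the opposite order (2.90 and 19.1 against 1.63 and 1.44 FPKM), and Dcn and Pdgfrb overlapped. The macrophage markers Cd14, Csf1r and Cd163 overlapped. Summed endothelium markers (33.4 and 110 against 51.3 and 27.8 FPKM) overlapped, as did summed skeletal muscle markers (12.4 and 4.67 against 7.77 and 58.5 FPKM). The part of these cell types in the values below was not tested. Leaving out each tumor in turn cannot test it where the markers differ between the genotypes in every tumor.

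Of the 38 genes, 35 reached 1 FPKM in all 4 tumors and 37 were tested; the phosphoenolpyruvate carboxykinase gene Pck1 did not pass the filter. None of the 37 passed an adjusted p of 0.05 in limma, and none of all genes did (background 0%). At an unadjusted limma p under 0.05 stood 6 of the 37 genes, or 16.2%, against 9.82% of all genes tested. Of these 6, the isocitrate dehydrogenase gene Idh1, the lipoamide dehydrogenase gene Dld, the phosphatase gene Pdp2, the pyruvate dehydrogenase E1α gene Pdha1 and the dihydrolipoamide succinyltransferase gene Dlst were lower in the triple-mutant tumors, and the mitochondrial phosphoenolpyruvate carboxykinase gene Pck2 was higher. Both double-mutant tumors stood above both triple-mutant tumors for 15 of the 37 genes (40.5%, background 22.9%). The opposite order was seen for 5 genes (13.5%, background 21.3%), namely Pdk3, Pdp1, Suclg2, Sdhb and Pck2, and the genotypes overlapped for 17. The median log2 fold change of the 37 genes was −0.23, with quartiles of −0.68 and 0.10, beside −0.02 over all genes tested, and 26 of the 37 (70.3%) were negative against 51.6% of all genes. For a gene or ratio on its own, an exact permutation over 2 tumors against 2 gives p = 0.333 at the lowest.

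**Figure D1:**
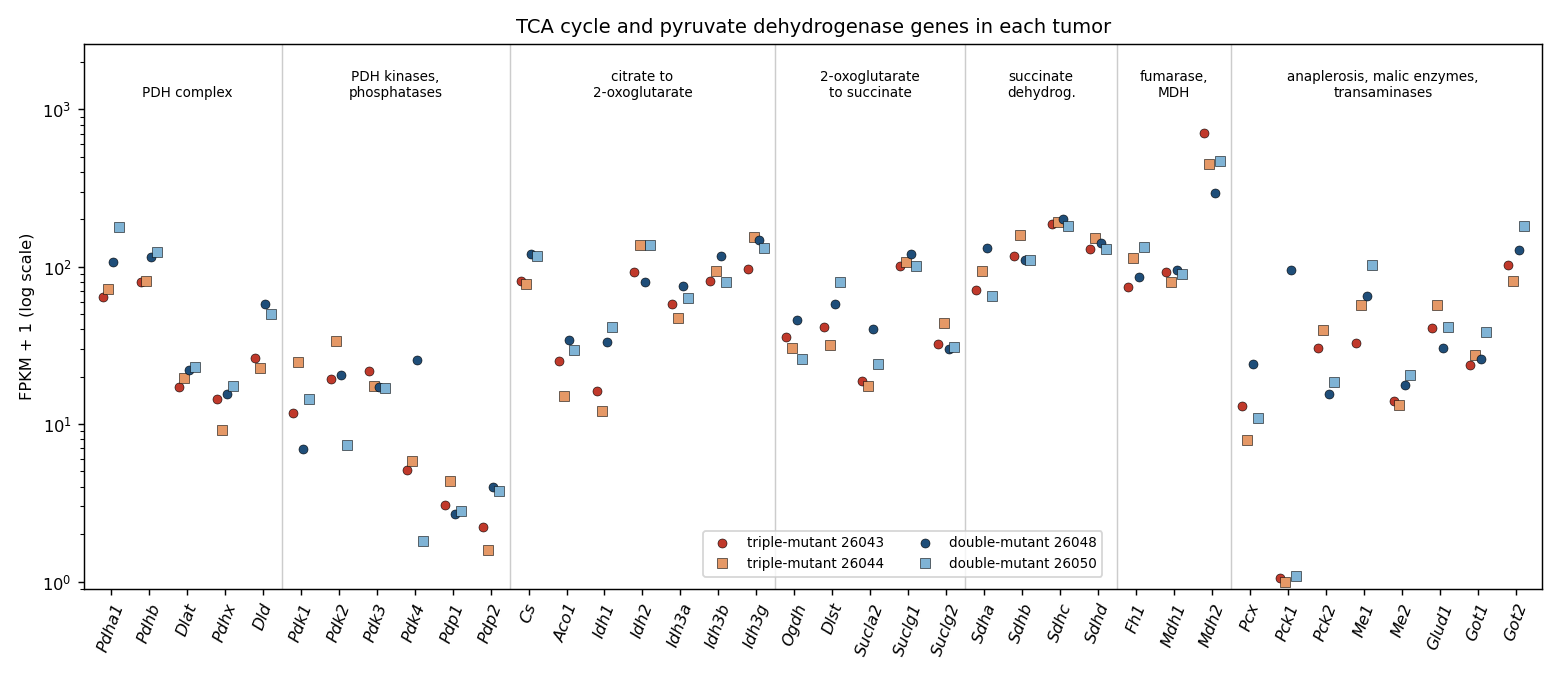
FPKM + 1 (log scale) of the 38 genes in each tumor, grouped by role; red and orange points are the triple-mutant and dark and light blue points the double-mutant tumors. Mdh2 is the highest gene, Pck1 is near 0 in all tumors but 26048, and all 5 genes of the pyruvate dehydrogenase complex are higher in both double-mutant tumors.

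**Figure D2:**
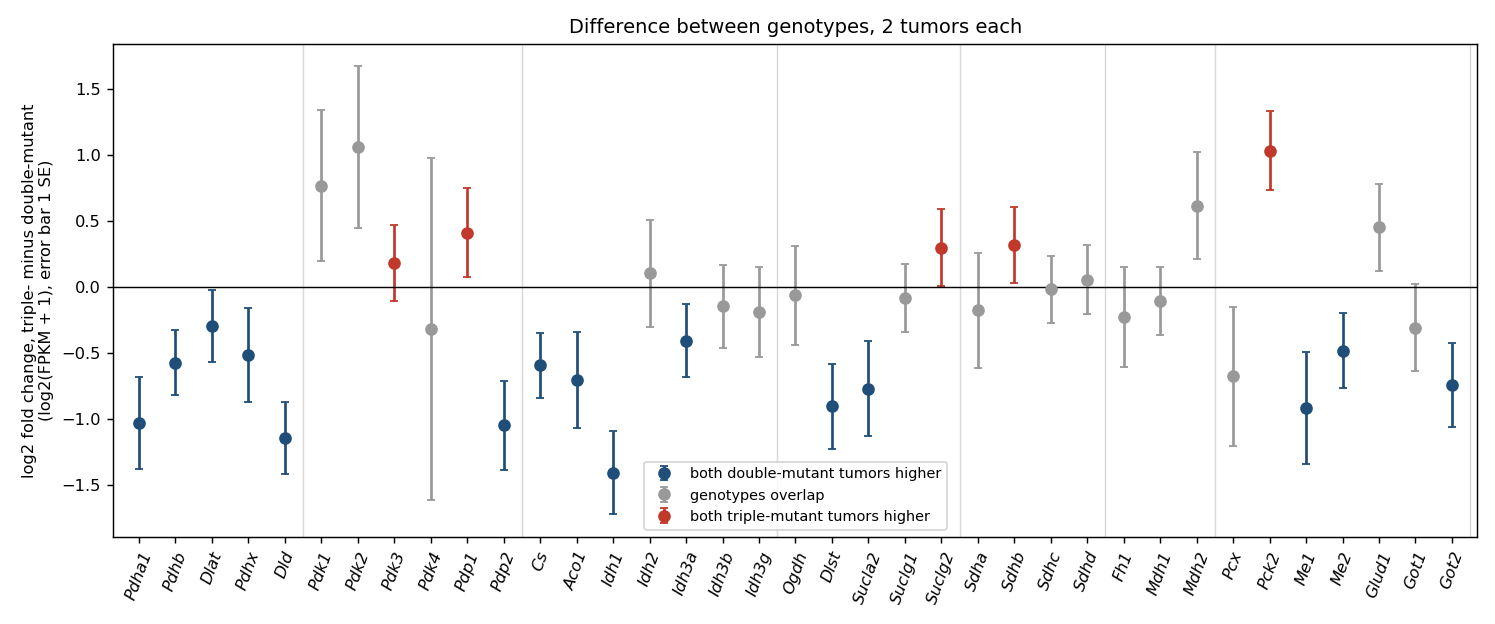
Log2 fold change (triple-mutant minus double-mutant, log2(FPKM + 1)) of the 37 genes tested, in the same order; error bars are 1 SE of the limma fit with 2 tumors in each genotype. Blue marks the 15 genes higher in both double-mutant tumors, red the 5 higher in both triple-mutant tumors and grey the 17 whose genotypes overlap.

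All 5 genes of the pyruvate dehydrogenase complex were higher in both double-mutant tumors than in both triple-mutant tumors, with a median log2 fold change of −0.57 (background for that order 22.9% of all genes). Their summed level was 197 and 199 FPKM in the triple-mutant tumors against 314 and 388 FPKM in the double-mutant tumors. Dld (chr12:31331562-31351437), the E3 subunit that the complex shares with 2-oxoglutarate dehydrogenase, was at 25.4 and 21.6 FPKM in the triple-mutant and at 57.1 and 49.4 FPKM in the double-mutant tumors. That is a log2 fold change of −1.15 (SE 0.27, limma adjusted p = 0.396), and the spread within each genotype was small beside the gap between them. Pdha1 (chrX:160122219-160138336), the E1α subunit that the kinases phosphorylate, was at 62.9 and 70.7 FPKM against 107 and 176 FPKM (log2 fold change −1.03, SE 0.35, limma adjusted p = 0.487). Here the double-mutant tumors differed more between themselves than the triple-mutant tumors did, and the lower of them was 1.51-fold above the higher triple-mutant tumor. Of all 50-base stretches in Pdha1 transcripts, 12.5% also lie in transcripts on the opposite strand, which include Map3k15, and the strand setting of the quantification is not given in the sources used here. Pdhb, the E1β partner of Pdha1, was at 78.9 and 80.2 FPKM against 114 and 123 FPKM (log2 fold change −0.57, SE 0.25), with 10.9% of its stretches shared with other transcripts of the same strand. Pdhx, which tethers E3 to the core, was at 13.5 and 8.14 FPKM against 14.5 and 16.4 FPKM (log2 fold change −0.52). The E2 core gene Dlat had the smallest difference of the 5, at 16.2 and 18.7 FPKM against 21.2 and 22.1 FPKM (log2 fold change −0.30), so the subunits did not differ to the same extent. The log2 ratio of Dlat to Dld was −0.62 and −0.20 in the triple-mutant against −1.39 and −1.13 in the double-mutant tumors, a gap of 0.85 without overlap (exact permutation p = 0.333, adjusted over 11 ratios 0.458). Relative to Pdhb, Pdha1 had a log2 ratio of −0.32 and −0.18 against −0.10 and 0.51, without overlap but closer together (exact permutation p = 0.333, adjusted p = 0.458).

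The kinases did not share a direction. Pdk1, a kinase known as a target of hypoxia-inducible factor, was at 10.8 and 24.0 FPKM in the triple-mutant and at 5.99 and 13.4 FPKM in the double-mutant tumors (log2 fold change 0.77, SE 0.57). Pdk2, the broadly expressed isoform, was at 18.5 and 32.6 FPKM against 19.4 and 6.39 FPKM (log2 fold change 1.06, SE 0.61). For both genes the genotypes overlapped, tumor 26044 was the highest, and the lowest tumor was a double-mutant one but not the same one. Pdk3 was at 20.7 and 16.4 FPKM against 16.3 and 15.9 FPKM, an order without overlap in which the nearest tumors of the genotypes were almost level (log2 fold change 0.18, SE 0.29). Pdk4, the isoform induced by fasting and fatty acids, was at 4.08 and 4.87 FPKM in the triple-mutant and at 24.4 and 0.82 FPKM in the double-mutant tumors. Its highest and its lowest value both came from double-mutant tumors, and its log2 fold change of −0.32 (SE 1.295) turned to 1.58 without tumor 26048. Pdk4 made up 36.9% of the summed kinase level in tumor 26048 and 7.56%, 6.25% and 2.25% in tumors 26043, 26044 and 26050. The summed level of the 4 kinase genes was 54.0 and 77.9 FPKM in the triple-mutant and 66.1 and 36.6 FPKM in the double-mutant tumors, which overlap.

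The phosphatases, which reactivate the complex, had the lowest mean FPKM over the 4 tumors of the 38 genes. Pdp2 (chr8:104591468-104596849) was at 1.23 and 0.58 FPKM in the triple-mutant and at 2.995 and 2.78 FPKM in the double-mutant tumors (log2 fold change −1.05, SE 0.34, limma adjusted p = 0.480). Pdp1, the calcium-stimulated isoform, had the opposite order, with 2.08 and 3.37 FPKM against 1.69 and 1.82 FPKM (log2 fold change 0.41, SE 0.34). The sum of both was 3.31 and 3.95 FPKM against 4.68 and 4.60 FPKM, so Pdp2 made up 37.3% and 14.6% of the phosphatase level in the triple-mutant and 64.0% and 60.4% in the double-mutant tumors. The ratio of summed kinases to summed phosphatases, with 1 FPKM added to each sum, was 12.8 and 15.9 in the triple-mutant against 11.8 and 6.71 in the double-mutant tumors. These values do not overlap, but tumor 26048 lay close to tumor 26043 (log2 gap 0.68, exact permutation p = 0.333, adjusted p = 0.458).

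**Figure D3:**
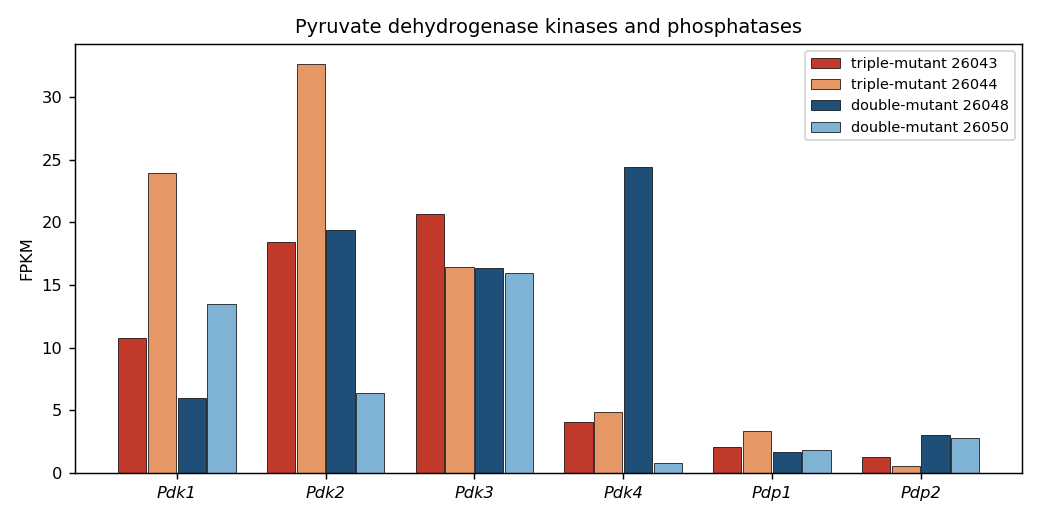
FPKM of the 4 kinases (Pdk1 to Pdk4) and 2 phosphatases (Pdp1 and Pdp2) of the pyruvate dehydrogenase complex, 1 bar per tumor and no error bar because each bar is 1 sample. Pdk4 is high in tumor 26048 alone (24.4 FPKM), and Pdp2 is above 2.7 FPKM in both double-mutant tumors and below 1.3 FPKM in both triple-mutant tumors.

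From citrate to 2-oxoglutarate, 4 of the 7 genes were higher in both double-mutant tumors (background 22.9%) and none in both triple-mutant tumors (background 21.3%). Idh1 (chr1:65158616-65186479), the cytosolic, NADP-dependent isocitrate dehydrogenase and a source of NADPH for lipid synthesis, had the largest negative difference of all 37 genes tested. It was at 15.1 and 11.1 FPKM in the triple-mutant and at 32.3 and 40.4 FPKM in the double-mutant tumors (log2 fold change −1.41, SE 0.31, limma adjusted p = 0.379). The lower double-mutant tumor was 2.14-fold above the higher triple-mutant tumor. Idh2, the mitochondrial counterpart, had no such order, with 90.9 and 137 FPKM against 79.3 and 136 FPKM (log2 fold change 0.10, SE 0.40). The log2 ratio of Idh1 to Idh2 was −2.51 and −3.51 in the triple-mutant and −1.27 and −1.72 in the double-mutant tumors, so Idh2 exceeded Idh1 in every tumor and by more in the triple-mutant ones (exact permutation p = 0.333, adjusted p = 0.458). Citrate synthase (Cs), the first enzyme of the cycle, was at 79.6 and 76.5 FPKM against 120 and 117 FPKM, with replicates that nearly coincided (log2 fold change −0.59, SE 0.25). Cs shares 2.01% of its stretches with Csl. The cytosolic aconitase Aco1, which doubles as an iron sensor, was at 24.0 and 14.1 FPKM against 33.2 and 28.5 FPKM (log2 fold change −0.71, SE 0.36). Of the NAD-dependent enzyme that sets the pace of the cycle, the catalytic subunit gene Idh3a was at 56.9 and 45.9 FPKM against 74.1 and 62.5 FPKM (log2 fold change −0.41), while its partners Idh3b (−0.15) and Idh3g (−0.19) overlapped between the genotypes. The log2 ratio of Idh2 to the mean of the Idh3 subunits overlapped as well (0.23 and 0.48 against −0.50 and 0.58).

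From 2-oxoglutarate to succinate, the members again differed among themselves. Dlst (chr12:85110833-85134091), the E2 core of 2-oxoglutarate dehydrogenase, was at 40.3 and 30.8 FPKM in the triple-mutant and at 56.6 and 78.9 FPKM in the double-mutant tumors (log2 fold change −0.91, SE 0.32, limma adjusted p = 0.4996). Ogdh, the E1 subunit of the same complex, had 34.6 and 29.6 FPKM against 44.6 and 25.1 FPKM, so that both triple-mutant tumors lay between the double-mutant ones (log2 fold change −0.06). Succinyl-CoA ligase joins the α subunit Suclg1 to an ATP-specific (Sucla2) or a GTP-specific (Suclg2) β subunit. Sucla2 was at 17.9 and 16.5 FPKM against 39.1 and 23.1 FPKM (log2 fold change −0.77, SE 0.36), and Suclg2 at 31.2 and 42.7 FPKM against 29.2 and 29.9 FPKM (log2 fold change 0.30, SE 0.29). The log2 ratio of Sucla2 to Suclg2 was therefore lower in both triple-mutant tumors, at −0.77 and −1.32 against 0.41 and −0.36 (exact permutation p = 0.333, adjusted p = 0.458). Suclg2 shares 16.0% of its stretches with 1 other transcript model. Suclg1 overlapped between the genotypes, at 99.6 to 119 FPKM in all tumors.

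For the later steps, from succinate to oxaloacetate, the genotypes overlapped for every gene but Sdhb. The background is 22.9% of all genes higher in both double-mutant and 21.3% in both triple-mutant tumors. With 4 and 3 genes in these groups, the counts are too small to set against those shares. The 4 succinate dehydrogenase genes, whose enzyme is also complex II of the respiratory chain, had a median log2 fold change of 0.02, with none higher in both double-mutant tumors (background 22.9%). Sdhb, the iron-sulfur subunit, was higher in both triple-mutant tumors, at 116 and 159 FPKM against 109 and 109 FPKM (log2 fold change 0.32, SE 0.29). The membrane anchor gene Sdhc lay between 181 and 200 FPKM in all tumors. Sdhd (128 to 151 FPKM) and the flavoprotein gene Sdha (63.9 to 130 FPKM) also overlapped, and Sdha had its highest and lowest values in the double-mutant tumors. Fumarase (Fh1), at 73.4 and 113 FPKM against 85.6 and 133 FPKM, differed more within each genotype than between them (log2 fold change −0.23, SE 0.38). Mdh2, the mitochondrial malate dehydrogenase, had the highest level of the 38 genes, with a mean of 479 FPKM. It was at 707 and 451 FPKM in the triple-mutant and at 291 and 465 FPKM in the double-mutant tumors, with overlap between tumors 26044 and 26050 (log2 fold change 0.62, SE 0.40). Its cytosolic partner Mdh1, which works with it in the malate-aspartate shuttle, was at 91.1 and 78.9 FPKM against 94.1 and 88.6 FPKM. Between the malate dehydrogenases, the log2 ratio of Mdh1 to Mdh2 was −2.94 and −2.50 in the triple-mutant and −1.62 and −2.38 in the double-mutant tumors (exact permutation p = 0.333, adjusted p = 0.458), an order without overlap in which tumors 26044 and 26050 were close.

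Among the genes that fill or drain the cycle, Pck2 (chr14:55540266-55550017) ran against most of the set. This mitochondrial phosphoenolpyruvate carboxykinase was at 29.6 and 38.7 FPKM in the triple-mutant and at 14.6 and 17.5 FPKM in the double-mutant tumors (log2 fold change 1.03, SE 0.30, limma adjusted p = 0.471). The lower triple-mutant tumor was 1.69-fold above the higher double-mutant tumor. Pck1 (chr2:173153073-173159253), the cytosolic form known from liver, kidney and adipose tissue, was at 0.05 FPKM and listed at 0 in the triple-mutant tumors and at 94.3 and 0.08 FPKM in the double-mutant tumors. Its level thus rested on tumor 26048 alone. Pyruvate carboxylase (Pcx), which makes oxaloacetate from pyruvate, was at 12.1 and 6.91 FPKM against 23.2 and 9.96 FPKM and also highest in tumor 26048, and its log2 fold change moved from −0.68 (SE 0.53) to −0.11 without that tumor. In the same tumor the adipocyte genes Adipoq, Cfd and Plin1 were at 56.0, 625 and 31.4 FPKM, against at most 0.83, 4.99 and 0.21 FPKM in the other tumors. Other adipocyte markers were less confined to it. Fabp4 was at 1263 FPKM there and 261 FPKM in tumor 26044. Lipe was at 55.4 FPKM there and 24.0 FPKM in tumor 26050, and Pnpla2 at 129 FPKM there and 45.7 FPKM in tumor 26043. The part of adipocytes in the levels of Pck1, Pdk4 and Pcx was not tested.

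**Figure D4:**
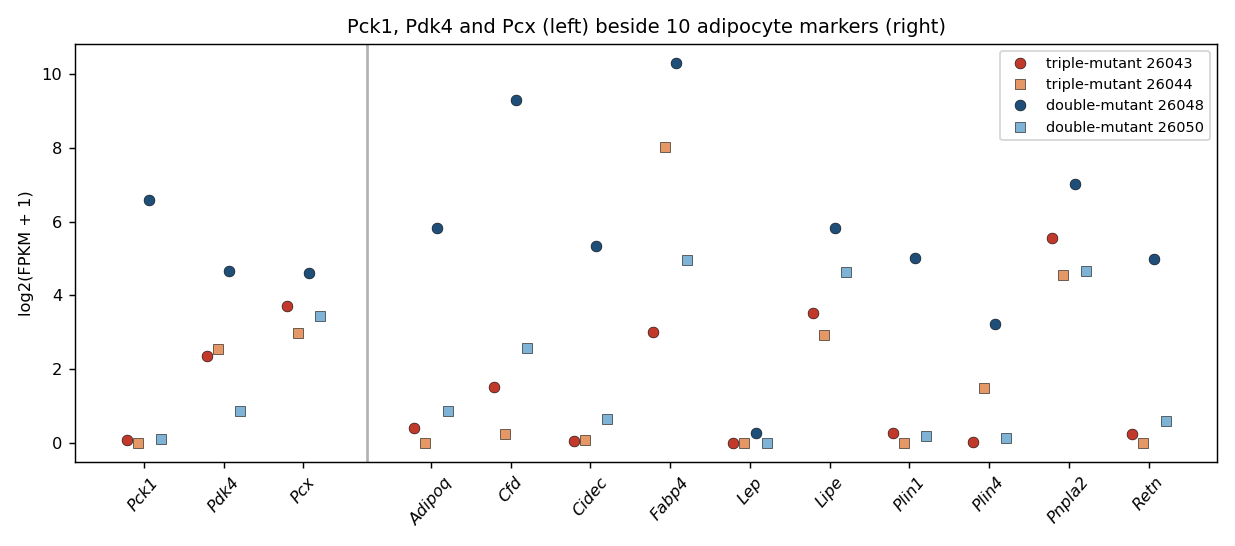
Log2(FPKM + 1) of Pck1, Pdk4 and Pcx (left of the line) and of the 10 adipocyte markers (right) in each tumor. Double-mutant tumor 26048 (dark blue) is the highest for all 3 genes and all 10 markers.

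The cytosolic malic enzyme Me1, which makes NADPH and pyruvate from malate, was at 31.7 and 55.9 FPKM in the triple-mutant and at 63.7 and 102 FPKM in the double-mutant tumors (log2 fold change −0.92, SE 0.42). Of its stretches, 22.9% occur in other transcripts of the same strand, so part of its level may be shared with them. On the opposite strand the share was 17.3%. The mitochondrial malic enzyme Me2 was at 13.04 and 12.1 FPKM against 16.6 and 19.5 FPKM (log2 fold change −0.49, SE 0.28). The log2 ratio of Me1 to Me2 overlapped between the genotypes (1.22 and 2.12 against 1.88 and 2.33, exact permutation p = 0.667, adjusted p = 0.815). Of the aspartate transaminases, the mitochondrial Got2 was at 101 and 80.7 FPKM against 126 and 182 FPKM (log2 fold change −0.74, SE 0.32). Of its stretches, 16.8% are shared with other transcripts of the same strand and 22.6% with transcripts on the opposite strand. The genes sharing them include the pseudogene Got2-ps1. The cytosolic Got1 overlapped, at 22.7 and 26.5 FPKM against 24.9 and 37.7 FPKM (log2 fold change −0.31, SE 0.33). Between the transaminases, the log2 ratio of Got1 to Got2 was higher in both triple-mutant tumors, at −2.10 and −1.57 against −2.29 and −2.24 (exact permutation p = 0.333, adjusted p = 0.458). Glutamate dehydrogenase (Glud1), which feeds 2-oxoglutarate from glutamate, was at 40.0 and 56.0 FPKM against 29.4 and 40.2 FPKM, with tumors 26043 and 26050 level (log2 fold change 0.45, SE 0.33). The ratio of Pck1 to Pck2 is not read here, since Pck1 was near 0 outside tumor 26048.

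Promoter sequences are shown for the 4 genes with the smallest limma p among those lower in the triple-mutant tumors, to show what letters lie at the starts of genes that shared an order. They come from RefSeq (GRCm38.p6), cover 250 bases before to 50 bases after the annotated start, and are written 5′ to 3′ on the gene's strand, with capitals for the motifs listed after them. For Idh1 (chr1:65186430-65186729, minus strand) the start nearest the 5′ end of the quantified locus was taken, and the others lie at chr12:31351422-31351721 (Dld, minus strand), chrX:160138381-160138680 (Pdha1, minus strand) and chr8:104591222-104591521 (Pdp2, plus strand).
Idh1: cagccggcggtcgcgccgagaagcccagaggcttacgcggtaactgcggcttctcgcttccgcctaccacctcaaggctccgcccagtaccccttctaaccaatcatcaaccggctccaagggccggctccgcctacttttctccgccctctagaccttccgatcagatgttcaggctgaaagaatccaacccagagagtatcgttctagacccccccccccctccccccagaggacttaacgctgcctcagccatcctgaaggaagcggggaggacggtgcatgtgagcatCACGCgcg
Dld: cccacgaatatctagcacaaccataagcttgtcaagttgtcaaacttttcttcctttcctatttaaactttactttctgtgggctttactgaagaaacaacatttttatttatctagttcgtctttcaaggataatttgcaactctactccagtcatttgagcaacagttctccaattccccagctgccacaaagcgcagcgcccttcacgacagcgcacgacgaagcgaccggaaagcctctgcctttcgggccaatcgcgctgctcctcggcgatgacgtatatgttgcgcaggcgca
Pdha1: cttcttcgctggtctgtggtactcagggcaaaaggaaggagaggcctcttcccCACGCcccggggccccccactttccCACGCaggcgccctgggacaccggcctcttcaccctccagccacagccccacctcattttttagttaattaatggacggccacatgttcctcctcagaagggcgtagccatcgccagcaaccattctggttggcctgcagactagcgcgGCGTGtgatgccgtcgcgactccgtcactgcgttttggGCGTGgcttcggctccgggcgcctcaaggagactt
Pdp2: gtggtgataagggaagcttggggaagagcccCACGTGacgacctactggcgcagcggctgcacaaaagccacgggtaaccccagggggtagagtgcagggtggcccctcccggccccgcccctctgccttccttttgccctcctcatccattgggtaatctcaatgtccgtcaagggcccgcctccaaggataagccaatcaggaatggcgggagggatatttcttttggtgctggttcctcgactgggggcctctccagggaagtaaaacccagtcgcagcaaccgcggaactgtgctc
The Idh1 window holds the hypoxia response core GCGTG once, read as CACGC on the strand shown, the Pdha1 window holds it 4 times, the Pdp2 window holds 1 E-box, CACGTG, and the Dld window holds none of the motifs searched.

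Promoters were listed for 34 of the 38 genes, some with more than 1 start. The GC content of these promoters was high, with a median of 60.8% against 52.7% over all promoters of the 27025 genes listed. The core GCGTG, searched on both strands, was found in 20 of the 34 (58.8%), against 35.2% of all genes. The core ACGTG was found in 10 (29.4%) against 21.8%, and the E-box CACGTG, which always contains ACGTG, in 4 (11.8%) against 8.09%. The site AAGGTCA of estrogen-related receptors was found in 3 (8.82%) against 5.38%, the GABPA motif CCGGAAGTG in 1 (2.94%, Dlst) against 2.25%, and the NRF1 motif in none against 1.07%. GCGTG was found in 5 of the 13 genes with a promoter among those higher in both double-mutant tumors (38.5%), close to its share over all genes. These matches describe letters, and no binding was measured here.

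The position of a gene went along with its difference. For each of the 37 genes the median log2 fold change of the 10 nearest tested genes on either side was taken (16 genes in all for Pdhb, 20 for the others). Tested genes with symbols that start with Mir, Snor or Gm and a digit were skipped. Over the 37 genes this median had a Spearman correlation of 0.62 and a Pearson correlation of 0.70 with the gene's own value. Over 12481 genes, with the same symbols skipped and genes near chromosome ends included, these correlations were 0.40 and 0.36. All points share the same 4 tumors, and windows of nearby genes overlap, so the correlations are descriptions. Of the 20 neighbours of Dld, 20 were lower in the triple-mutant tumors (median −0.68), as were 17 of 20 around Idh1 (median −0.56), 17 of 20 around Pdha1 (−0.59) and 17 of 20 around Pdp2 (−0.62). The neighbours of Pck2 and Mdh2 had medians of 0.63 and 0.63, with 2 of 20 lower in each case. Fh1 differed from its neighbourhood, since 18 of its 20 neighbours were lower (median −0.68) while its own value was −0.23. Cs, at −0.59, had neighbours at 0.18. Relative to their neighbours, 25 of the 37 genes were lower, with a median gap of −0.15, beside 6258 of the 12481 genes and a median gap of −0.0021. DNA copy number was not measured here, and its part in these values was not tested.

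**Figure D5:**
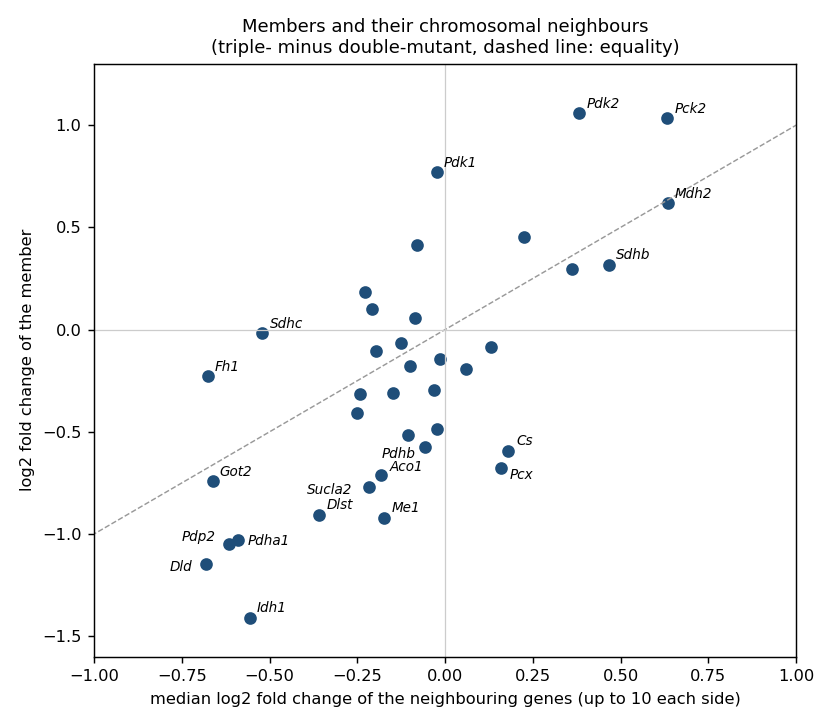
Log2 fold change (triple-mutant minus double-mutant) of each of the 37 genes against the median of its chromosomal neighbours (20, or 16 for Pdhb), 1 point per gene; the dashed line marks equality. Dld, Pdha1, Pdp2 and Idh1 lie at the lower left with neighbours between −0.68 and −0.56, and Pck2 and Mdh2 at the upper right with neighbours at 0.63.

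Genes around the cycle were read from lists of their own. Of 41 tested genes for pyruvate and metabolite carriers, lipoylation, glutamine use and acetyl-CoA handling, 12 were higher in both double-mutant tumors (background 22.9%) and 3 in both triple-mutant tumors (background 21.3%), and the median log2 fold change was −0.19 beside −0.02 over all genes, with none at an unadjusted limma p under 0.05. Among the genes without overlap, the largest differences were in Acly, which makes cytosolic acetyl-CoA from citrate (58.7 and 42.3 against 100.3 and 75.4 FPKM, log2 fold change −0.79), the lipoyl transferase gene Lipt2 (7.28 and 8.51 against 10.9 and 17.7 FPKM, −0.75) and the acetyl-CoA synthetase gene Acss2 (4.26 and 4.07 against 4.89 and 8.95 FPKM, −0.57). Of 22 general markers of mitochondrial content, 7 were higher in both double-mutant tumors (background 22.9%) and 3 in both triple-mutant tumors (background 21.3%), with a median of −0.03. Among them the matrix chaperone gene Hspd1 was at 215 and 201 against 389 and 611 FPKM (log2 fold change −1.23, SE 0.34), Tomm20, an import receptor, was at 35.3 and 21.8 against 41.9 and 65.1 FPKM (−0.89), and the mitochondrial RNA polymerase gene Polrmt was at 23.1 and 34.2 against 14.7 and 13.4 FPKM (0.95, SE 0.32).

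Regulators that are known to act on these genes had a median of 0.04 over 13 tested. Foxo1, a transcription factor known to induce Pdk4, was at 19.998 and 16.2 FPKM in the triple-mutant and at 6.98 and 6.85 FPKM in the double-mutant tumors (log2 fold change 1.26, SE 0.30, limma adjusted p = 0.396), an order that Pdk4 did not share. Tfam, which packages mitochondrial DNA, was at 15.9 and 64.9 against 11.45 and 13.2 FPKM (1.33, SE 0.71), with tumor 26044 far above the rest. Ppargc1b, a coactivator of mitochondrial genes, was at 2.23 and 4.42 against 1.12 and 1.45 FPKM (0.88, SE 0.39). Hif1a was at 17.8 and 16.7 against 22.5 and 29.9 FPKM (−0.57, SE 0.30). Pparg, the adipocyte regulator, was at 9.03 FPKM in tumor 26048 and between 0.42 and 1.19 FPKM in the others.

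Tumor by tumor, the 37 genes were more alike between the double-mutant tumors (median absolute log2 difference 0.25) than between the triple-mutant tumors (0.38), and differed by 0.43 to 0.63 between tumors of different genotypes. Over all genes tested the values were 0.36 within the double-mutant tumors, 0.45 within the triple-mutant tumors and 0.37 to 0.57 between genotypes. Tumor 26043 had the highest value of 2 of the 37 genes, tumor 26044 of 10, tumor 26048 of 14 and tumor 26050 of 11. In the same order of tumors, they had the lowest value of 8, 13, 8 and 8 genes. No such counts were taken over all genes, so no share stands beside them. Without tumor 26048 the median log2 fold change of the 37 genes was −0.11 and the counts were 17 genes higher in the double-mutant and 12 in the triple-mutant tumors, and without tumor 26044 they were −0.31, 19 and 6. The median over all genes tested moved as well, from −0.02 to 0.0061 without tumor 26048 and to 0.060 without tumor 26044. The matching counts over all genes were not taken. A lone tumor against a pair overlaps less often by construction. Depending on the tumor omitted, the differences spanned −1.62 to −1.20 for Idh1, −1.26 to −1.03 for Dld and −1.39 to −0.67 for Pdha1. For Pdp2, Dlst and Pck2 they spanned −1.30 to −0.80, −1.14 to −0.67 and 0.84 to 1.22. The genotypes did not overlap for any of these genes, so omitting a tumor could not turn the sign and does not test it.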

How the data were processed

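PolyA RNA of 4 tumors was sequenced by the authors as strand-marked (dUTP), 50-bp single-end libraries and aligned to mm10 with TopHat2 2.0.10 and Bowtie 0.12.9, per the labels and the study's methods. The deposited values are FPKM per gene from Cufflinks 2.1.1, 1 table per tumor, with 12150 to 12681 genes at 1 FPKM or more. Read totals were not used here; the Cufflinks intervals had a median half-width of 8.35% to 8.78% of the level. The authors tested read counts with DESeq2 1.6.2, and those counts were not used here. Their gene set enrichment analysis of these tumors reported citrate/TCA cycle genes as higher in the double-mutant tumors. The order described here comes from the same tumors and is not independent of that result. Here, log2(FPKM + 1) was fitted with limma 3.58.1 (R 4.3.3, trended variance) for the 12752 genes that reached 1 FPKM in 2 or more tumors, p-values were adjusted by Benjamini-Hochberg, and the threshold was 0.05. The fit was checked on simulated data. Genotypes came from the sample labels. The sources used here do not say which tumors were from littermates, so the fit has no block. The SE and p-values of limma are moderated. They combine a gene's own spread between these tumors with the spread typical of genes at its level. Ratios were tested by exact two-sided permutation. Shared 50-base stretches were counted against GENCODE M21 transcripts. Every tumor's value is given for genes of the set with an unadjusted limma p under 0.05, for genes without overlap that differ by at least 0.5 log2 units, for kinases and phosphatases and for both genes of a ratio. Of the lists around the cycle, the 3 largest differences without overlap are named; Hif1a and Pparg were added after their values were seen. The members, lists and tests were chosen with earlier results of these data known. Alternatives were TPM, another pseudocount, other filters, quantile normalization, no variance trend, interval midpoints and leaving out each tumor.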

Additional observations from a re-analysis of the deposited data

How the results depend on the processing

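No gene of the 37 passed an adjusted p of 0.05 in limma under any of the 12 alternatives. Those that kept all 4 tumors gave medians of −0.26 to −0.19, 14 to 16 genes higher in the double-mutant and 4 to 5 in the triple-mutant tumors, except the midpoints of the Cufflinks intervals (median −0.14, 12 and 7 genes) and quantile normalization (3 genes higher in the triple-mutant tumors). The median over all genes tested moved as well, to 0.026 for the midpoints and between −0.046 and 0.0021 for the others. The filter of 5 FPKM kept 34 genes of the set, and no filter kept 38. Counts over all genes were not taken for these alternatives. The FPKM and the midpoint can differ, as 27 of the 38 genes had an FPKM outside their own interval in at least 1 tumor, and the cause was not tested. Leaving out 1 tumor gave medians of −0.38 to −0.11, with 6 to 12 genes higher in the triple-mutant and 17 to 23 in the double-mutant tumors. The median over all genes tested was then −0.12 to 0.060, and the matching counts over all genes were not taken. With all 4 tumors, the sign turned for Sdhc (0.035, quantile normalization), Mdh1 (0.11, midpoints) and the Pdk1 to Pdk2 ratio (0.0024, midpoints). With 1 tumor left out, it turned within these ranges of the log2 fold change: Fh1 −0.54 to 0.089, Idh2 −0.28 to 0.49, Idh3b −0.41 to 0.12, Idh3g −0.53 to 0.15, Ogdh −0.47 to 0.34, Pdk4 −2.22 to 1.58, Sdha −0.68 to 0.33, Sdhc −0.087 to 0.054, Sdhd −0.054 to 0.17 and Suclg1 −0.20 to 0.037, and for the log2 ratios Idh2 to Idh3 −0.22 to 0.85, Me1 to Me2 −0.88 to 0.014 and Pdk1 to Pdk2 −1.55 to 0.97.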
